A study of Homo sapiens with 24 samples.

Results

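A set of 10 genes that Wnt signalling switches on in intestinal cells, or that mark the intestinal stem cell, were followed through the loss of the TNRC6 proteins in HCT116 cells. They are LGR5, ASCL2, AXIN2, NKD1, RNF43, ZNRF3, LEF1, TCF7, SP5 and SOX9, 10 of the 57721 annotated genes with a transcript in the expression files. They were taken by name, with earlier results of these data known. HCT116 is a colon cancer line with an activating mutation of CTNNB1, the gene of beta-catenin. RNA-seq of 24 libraries covered 8 groups of 3. The untransfected groups were wild-type cells (WT) and lines lacking TNRC6A (TNRC6A-/-), TNRC6B (TNRC6B-/-) or both (TNRC6AB-/-). In the other 4 groups WT and TNRC6AB-/- cells were transfected with siTNRC6C, a pool of duplex siRNAs against TNRC6C, or with siGL2, a duplex against firefly luciferase that has no target in human cells. All groups share the HCT116 background. Each knockout genotype was a single purchased line, TNRC6A-/- made by a small frameshift change and TNRC6B-/- by a large deletion, so that genotype and line cannot be told apart. No source used here says whether the 3 libraries of a group came from separate cultures, so that a p-value measures the spread between these libraries, which may be technical.

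In Wnt signalling a secreted ligand binds Frizzled and LRP receptors, the complex that destroys beta-catenin is held back, and beta-catenin enters the nucleus and joins DNA-binding proteins of the TCF/LEF family at target genes. Several targets feed back on the pathway: AXIN2 rebuilds the destruction complex, RNF43 and ZNRF3 are ubiquitin ligases that clear Frizzled from the cell surface, and NKD1 binds Dishevelled. TNRC6A, TNRC6B and TNRC6C are scaffold proteins that Argonaute recruits to microRNA targets and that bring in the deadenylases. The comparisons ask how the RNA of these genes stands when 1, 2 or all 3 TNRC6 proteins are lost or lowered.

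Each library held between 28144290 and 42689320 estimated reads. The targeted genes moved with the labels: TNRC6C differed by a log2 fold change of -1.35 ± 0.09 (SE) in WT siTNRC6C against WT siGL2 and of -2.60 ± 0.09 in TNRC6AB-/- siTNRC6C against TNRC6AB-/- siGL2. Against WT, TNRC6A stood at -0.70 ± 0.10 in TNRC6A-/- and TNRC6B at -0.68 ± 0.09 in TNRC6B-/-. In TNRC6AB-/- against WT, TNRC6A stood at -1.13 ± 0.10 and TNRC6B at -1.05 ± 0.09, and TNRC6C rose by 0.92 ± 0.09. Of 10 colon epithelium markers 6 reached 1 TPM, the keratins 8, 18 and 19, EPCAM, CDH1 and CDX2, while VIL1, CEACAM5, KRT20 and CDH17 did not. These markers moved with the groups: in TNRC6AB-/- against WT CDH1 stood at -2.00 ± 0.33 and EPCAM at -1.38 ± 0.20, in TNRC6A-/- at -1.22 ± 0.32 and -0.98 ± 0.20, and KRT8 rose in both, by 0.63 ± 0.15 and 0.80 ± 0.15. In TNRC6AB-/- siTNRC6C against WT siGL2 CDH1 and EPCAM also fell, by 1.41 and 0.76 on the log2 scale. Of 6 fibroblast markers 2 reached 1 TPM, COL1A1 and COL3A1, and the 6 summed to 17.8 to 29.9 TPM in TNRC6AB-/- against 11.3 to 15.7 in WT, and to 23.7 to 26.7 TPM in TNRC6AB-/- siTNRC6C and 13.2 to 19.0 in TNRC6AB-/- siGL2 against 6.21 to 10.5 in WT siGL2. COL3A1 had 3, 1 and 1 reads in the WT libraries and 461, 1836 and 2003 in TNRC6AB-/-. The part of these marker changes in the results was not tested. Markers of blood and endothelium summed to at most 3.26 TPM in any library. The spread between libraries was wider in the untransfected groups, with a biological coefficient of variation of 0.202, than in the transfected ones, with 0.0758. All 24 libraries shared 1 estimate of the spread per gene in the edgeR quasi-likelihood fit used here, and a gene is called changed at a Benjamini-Hochberg adjusted p below 0.05 over 24153 tested genes. For the tested target genes, the adjusted p of a fit of only the libraries compared is given for most calls it ended or added. Calls of other named genes are from the fit of all libraries.

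Of the 10 genes, 3 were near silent in every group. LGR5, the R-spondin receptor that marks crypt stem cells, had 34 reads over all 24 libraries and at most 5 in any of them. The TNRC6AB-/- libraries had 4, 4 and 2 reads of it and those of TNRC6AB-/- siTNRC6C 5, 3 and 4, while no library of another group had more than 2. ASCL2, a transcription factor of the same stem cells, had 4 reads in all and never more than 1. LEF1, a TCF/LEF factor that is itself a Wnt target, had 11 reads in all and at most 3, all 3 of them in a TNRC6AB-/- siTNRC6C library. A count of 0 allows up to 3 reads, or from 0.0703 to 0.107 CPM over the libraries, CPM being reads scaled to a common library size. These genes sat at or near that floor, did not pass the filter on low counts, and were given no fold change. Of 9 other stem cell genes in the wider list OLFM4 and SMOC2 were as low, with 5 reads and 1 read in all, and the other 7 (BMI1, MSI1, PTK7, PROM1, LRIG1, TERT and HOPX) were expressed and tested.

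The other 7 genes were expressed at widely different levels. Per length, in WT cells, SOX9 had a mean of 35.9 TPM (SD 1.06, n = 3) and RNF43 28.2 TPM. Far below them came TCF7 at 6.55 TPM, AXIN2 at 3.32 TPM, ZNRF3 at 2.89 TPM and NKD1 at 1.45 TPM, and SP5 was lowest at 0.11 TPM. Levels of 1 gene between libraries are given from here on in CPM, since that is the scale on which they were tested.

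**Figure D1:**
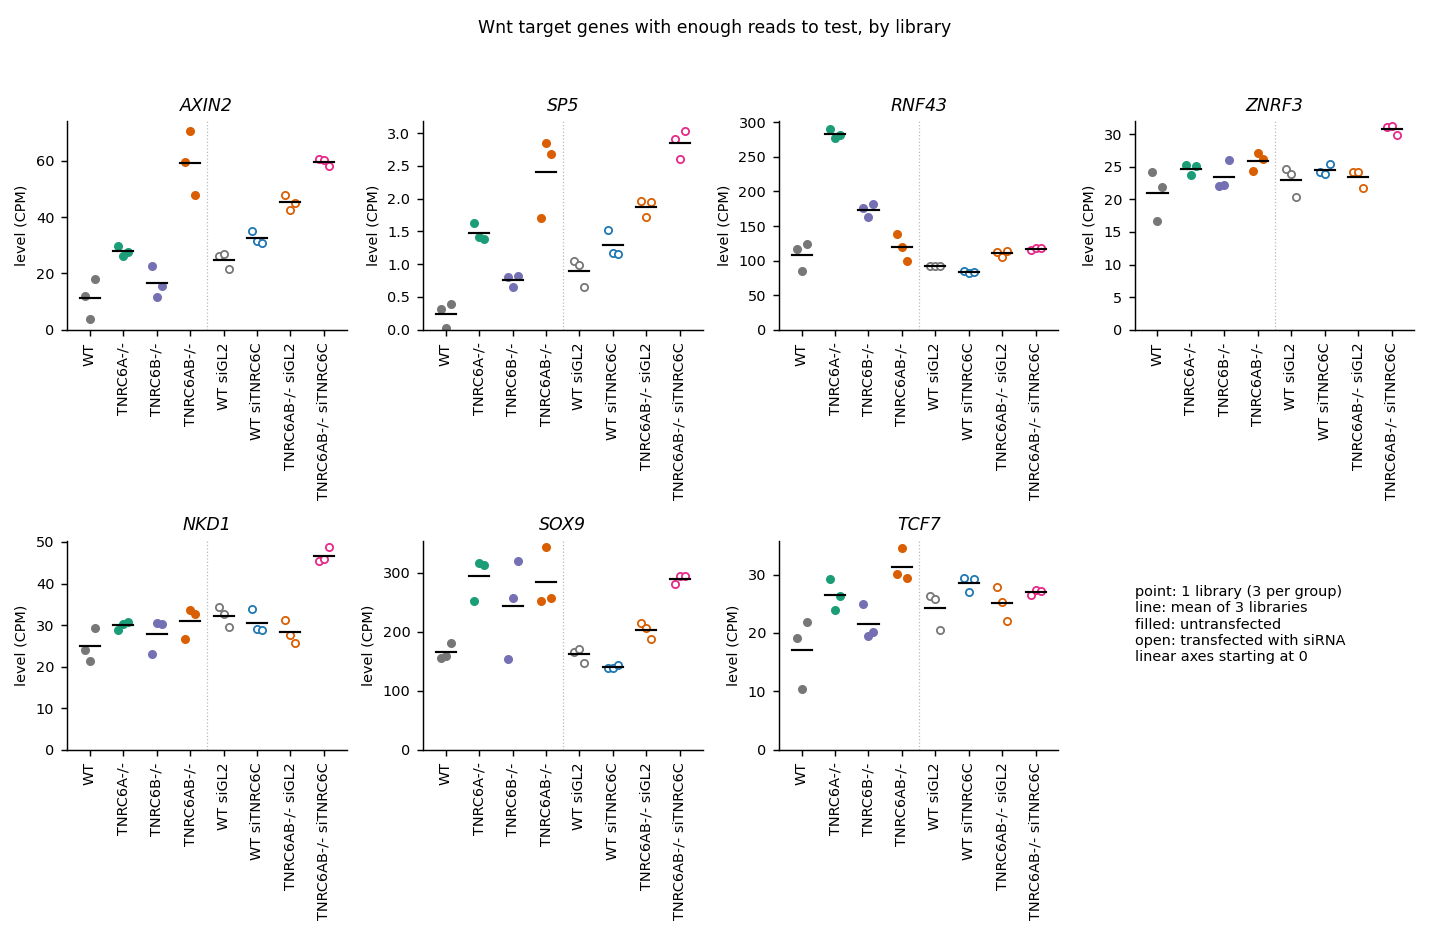
Levels of the 7 tested genes in CPM (linear axes from 0) in each of the 24 libraries, with a point per library and a line at the mean of each group of 3. AXIN2 and SP5 were highest in the groups that lack TNRC6A and TNRC6B, RNF43 was highest in TNRC6A-/- at a mean of 283.6 CPM, and NKD1 was highest in TNRC6AB-/- siTNRC6C at a mean of 46.7 CPM.

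By group mean AXIN2 was lowest in WT and highest in the 3 TNRC6AB-/- groups. In the 3 WT libraries it stood at 12.1, 3.82 and 18.1 CPM, in TNRC6A-/- at 29.7, 26.3 and 27.5 CPM, in TNRC6B-/- at 22.8, 11.6 and 15.5 CPM, and in TNRC6AB-/- at 59.5, 70.6 and 47.7 CPM. The TNRC6A-/- and TNRC6AB-/- libraries all lay above every WT library, and TNRC6B-/- overlapped WT. AXIN2 rose by a log2 fold change of 1.30 ± 0.30 in TNRC6A-/- (2.46-fold, edgeR adjusted p = 0.00546) and by 2.38 ± 0.31 in TNRC6AB-/- (5.22-fold, adjusted p = 2.69e-06). In TNRC6B-/- the difference was 0.56 ± 0.30 (adjusted p = 0.414), with a 95% interval of -0.07 to 1.18. These comparisons share the WT libraries, and the second of those was low for AXIN2. Without it the values were 0.89 in TNRC6A-/- (adjusted p = 0.00645) and 1.98 in TNRC6AB-/- (adjusted p = 3.53e-07). With the 6 libraries of each comparison alone, the call in TNRC6A-/- was lost (adjusted p = 0.111) and the one in TNRC6AB-/- was kept (adjusted p = 0.00638).

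In transfected cells the AXIN2 levels of the 4 groups did not overlap. They were 26.1, 27.1 and 21.7 CPM in WT siGL2, 34.9, 31.6 and 30.8 CPM in WT siTNRC6C, 47.9, 42.6 and 45.1 CPM in TNRC6AB-/- siGL2, and 60.6, 60.2 and 58.1 CPM in TNRC6AB-/- siTNRC6C. AXIN2 rose by 0.86 ± 0.29 in TNRC6AB-/- siGL2 against WT siGL2 (adjusted p = 0.0377), a call lost when any 1 of the 6 libraries was left out (adjusted p from 0.0693 to 0.116) and kept with those 6 alone (adjusted p = 9.58e-07). It rose by 1.26 ± 0.29 in TNRC6AB-/- siTNRC6C against WT siGL2 (adjusted p = 0.00143). The step with siTNRC6C was 0.38 ± 0.29 in WT cells (adjusted p = 0.672) and 0.40 ± 0.29 in TNRC6AB-/- cells (adjusted p = 0.402). Both steps passed when only the libraries compared were fitted, with adjusted p = 0.00777 in WT and 5.29e-06 in TNRC6AB-/-. Over all 8 groups the order of AXIN2 by mean was TNRC6AB-/- siTNRC6C, TNRC6AB-/-, TNRC6AB-/- siGL2, WT siTNRC6C, TNRC6A-/-, WT siGL2, TNRC6B-/- and WT. Neighbours in that order overlapped except TNRC6AB-/- siGL2 with WT siTNRC6C and WT siTNRC6C with TNRC6A-/-.

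SP5, a zinc finger transcription factor of the Sp family, is a direct target of TCF and beta-catenin. Its RefSeq promoter (GRCh38.p14, plus strand, 250 bases before to 50 after the start) was searched on both strands for the TCF/LEF letters CTTTGAT or CTTTGAA or CTTTGTT or CTTTGTA. It held 3 matches, which are shown in capitals because SP5 had the largest fold changes of the 7 genes in every knockout against WT. They lie at -148, -109 and -84 from the start site, and the middle one is on the plus strand and the others on the minus strand.
SP5 chr2:170715179-170715205: gctttgtggaTTCAAAGgatttgcttt
SP5 chr2:170715218-170715244: agccgctattCTTTGATgattgggtag
SP5 chr2:170715243-170715269: agcggcaaacTTCAAAGccataaatct
Of 35116 RefSeq promoters of this length 13.8% held at least 1 such match and 0.179% held 3 or more. Promoters were found for 4 of the 10 genes, 6 in all. Those with none of these letters were the promoters of LEF1 and RNF43 and the TCF7 promoter at chr5:134115363-134115662. Both TCF7 promoters found lie inside the annotated gene, which starts at 134114711, and no promoter at that gene start was among those searched. The second TCF7 promoter held 1 match, at -50 from its start.
TCF7 chr5:134123558-134123584: gccccactggAACAAAGgaggagagag

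SP5 was a low gene in every group. It had 10, 1 and 13 reads in the WT libraries, equal to 0.31, 0.03 and 0.39 CPM, against 1.63, 1.42 and 1.38 CPM in TNRC6A-/-, 0.80, 0.66 and 0.81 CPM in TNRC6B-/- and 1.70, 2.84 and 2.68 CPM in TNRC6AB-/-. Every knockout library lay above every WT library. SP5 rose by a log2 fold change of 2.55 ± 0.36 in TNRC6A-/- (adjusted p = 4.16e-05), 1.60 ± 0.39 in TNRC6B-/- (adjusted p = 0.0205) and 3.26 ± 0.35 in TNRC6AB-/- (adjusted p = 2.34e-07). The second WT library, with its single read, enters all 3 of these values. Without it they were 2.05, 1.10 and 2.76, and the call in TNRC6B-/- was lost (adjusted p = 0.0568). That call was also lost without the third TNRC6B-/- library (adjusted p = 0.0691) and with the libraries compared alone (adjusted p = 0.704), where TNRC6A-/- (adjusted p = 0.0199) and TNRC6AB-/- (adjusted p = 0.00373) kept theirs.

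In transfected cells SP5 stood at 1.04, 0.98 and 0.65 CPM in WT siGL2 and at 1.53, 1.17 and 1.16 CPM in WT siTNRC6C. In TNRC6AB-/- it stood at 1.97, 1.72 and 1.94 CPM with siGL2 and at 2.91, 2.60 and 3.03 CPM with siTNRC6C. The 4 groups did not overlap. SP5 rose by 1.07 ± 0.29 in TNRC6AB-/- siGL2 (adjusted p = 0.0108, and 0.0558 without the third WT siGL2 library) and by 1.67 ± 0.29 in TNRC6AB-/- siTNRC6C (adjusted p = 7.18e-05), both against WT siGL2. The further step from siGL2 to siTNRC6C in TNRC6AB-/- cells, 0.60 ± 0.27, was not called (adjusted p = 0.177), and passed with the libraries compared alone (adjusted p = 0.00197).

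RNF43 went another way from AXIN2 and SP5. It had 116.8, 85.7 and 124.0 CPM in WT, 291.0, 277.5 and 282.3 CPM in TNRC6A-/-, 175.6, 162.4 and 182.3 CPM in TNRC6B-/- and 139.1, 119.9 and 99.4 CPM in TNRC6AB-/-. All single-knockout libraries lay above every WT library, and the TNRC6AB-/- libraries overlapped WT. RNF43 rose by 1.38 ± 0.12 in TNRC6A-/- (2.61-fold, adjusted p = 2.51e-08) and by 0.67 ± 0.11 in TNRC6B-/- (1.59-fold, adjusted p = 0.00117), a call that was lost with the libraries compared alone (adjusted p = 0.358). In TNRC6AB-/- its difference from WT was 0.13 ± 0.11 (adjusted p = 0.432), with a 95% interval of -0.10 to 0.37. In transfected cells RNF43 stood at 91.5, 92.6 and 92.9 CPM in WT siGL2, 84.7, 82.3 and 83.3 CPM in WT siTNRC6C, 112.6, 105.0 and 114.6 CPM in TNRC6AB-/- siGL2 and 115.7, 118.8 and 117.8 CPM in TNRC6AB-/- siTNRC6C. These 4 groups did not overlap, and RNF43 rose by 0.35 ± 0.11 in the last against WT siGL2 (adjusted p = 0.0177, and 0.051 without its second library).

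That RNF43 was high in TNRC6A-/- and not in TNRC6AB-/- was tested directly, in a comparison of these 2 lines that was added after the values had been seen. RNF43 was lower in TNRC6AB-/- by a log2 fold change of -1.25 ± 0.12 (adjusted p = 5.23e-08), while AXIN2 was higher by 1.09 ± 0.29 (adjusted p = 0.00875, and 0.0542 without the second TNRC6AB-/- library). Of the 7 genes 1 rose and 1 fell here, where 13.0% of all tested genes rose and 11.3% fell. SP5 differed by 0.71 ± 0.28 (adjusted p = 0.0711, and 0.0244 without the first TNRC6AB-/- library), and the other 4 genes lay between -0.05 and 0.24. The TNRC6A-/- libraries had the shortest mean fragments of the study, from 164.45 to 170.55 bases against 181.12 to 188.75 in WT and 184.38 to 190.53 in TNRC6AB-/-, and the part of this in the RNF43 values was not tested.

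ZNRF3, the close relative of RNF43, was much steadier. It lay between 16.6 and 24.3 CPM in WT and between 23.8 and 25.3 CPM in TNRC6A-/-, where its difference of 0.24 ± 0.11 was not called (adjusted p = 0.171). In TNRC6AB-/- the libraries had 24.3, 27.2 and 26.3 CPM, and ZNRF3 rose by 0.31 ± 0.11 (adjusted p = 0.0444). That call ended without the low second WT library (0.17, adjusted p = 0.273), without any 1 of 3 other libraries (the third WT library and TNRC6AB-/- replicates 2 and 3, adjusted p from 0.0514 to 0.247) and with the libraries compared alone (adjusted p = 0.307). The level was clearly apart only in TNRC6AB-/- siTNRC6C, at 31.2, 31.2 and 29.9 CPM, above all other libraries of the study. ZNRF3 there rose by 0.39 ± 0.11 against TNRC6AB-/- siGL2 (adjusted p = 0.0372), and by 0.42 ± 0.11 against WT siGL2 (adjusted p = 0.0042). With any 1 of the 6 libraries compared left out, the first of these calls was lost; with those 6 alone it was kept (adjusted p = 2.86e-05).

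NKD1 was changed by siTNRC6C in the double knockout more than in WT. Its levels were 34.3, 32.6 and 29.5 CPM in WT siGL2, 33.8, 29.1 and 28.8 CPM in WT siTNRC6C, 31.3, 27.6 and 25.8 CPM in TNRC6AB-/- siGL2 and 45.3, 45.9 and 48.8 CPM in TNRC6AB-/- siTNRC6C. The last group stood above all other 21 libraries of the study, and the other 3 overlapped. NKD1 rose by 0.73 ± 0.13 with siTNRC6C in TNRC6AB-/- cells (1.65-fold, adjusted p = 0.00133), and in WT cells the same step was -0.07 ± 0.13 (adjusted p = 0.908). The difference between the steps, tested as an interaction, was 0.80 ± 0.18 (adjusted p = 0.0172), where 0.903% of all genes were called with a positive interaction. It lay between 0.76 and 0.78 with an adjusted p from 0.0532 to 0.0606 without TNRC6AB-/- siGL2 replicate 2, TNRC6AB-/- siTNRC6C replicate 3 or WT siTNRC6C replicate 2 or 3, and at 0.84 (adjusted p = 0.0671) on counts rescaled from TPM. TNRC6C itself was lowered further by siTNRC6C in TNRC6AB-/- than in WT cells, so genotype and depth of knockdown cannot be told apart. Among untransfected cells NKD1 differed from WT by 0.27 in TNRC6A-/-, 0.16 in TNRC6B-/- and 0.31 in TNRC6AB-/-, none of them called. Without the third WT library the first and last of these passed, at 0.41 (adjusted p = 0.0447) and 0.45 (adjusted p = 0.0127), and without the first TNRC6AB-/- library the last did, at 0.41 (adjusted p = 0.0234).

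SOX9, a transcription factor of crypt progenitors and Paneth cells, was the most abundant of the 7 genes per length in WT. Its libraries stood at 154.9, 159.4 and 180.6 CPM in WT, 252.0, 316.2 and 313.8 CPM in TNRC6A-/-, 154.0, 257.7 and 319.8 CPM in TNRC6B-/- and 252.2, 343.0 and 256.3 CPM in TNRC6AB-/-. TNRC6A-/- and TNRC6AB-/- did not overlap WT, and TNRC6B-/- had its first library at the WT level and the others well above. SOX9 rose by 0.83 ± 0.17 in TNRC6A-/- (adjusted p = 0.00183) and by 0.78 ± 0.17 in TNRC6AB-/- (adjusted p = 0.0011), calls kept with the libraries compared alone (adjusted p = 0.00928 and 0.0139). In TNRC6B-/- the difference of 0.56 ± 0.17 was not called (adjusted p = 0.0752). Without the first TNRC6B-/- library it was 0.77 (adjusted p = 0.000621).

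In transfected cells SOX9 was lowest in WT siTNRC6C, at 138.0, 138.6 and 143.1 CPM, against 165.3, 171.5 and 147.2 CPM in WT siGL2. That difference, -0.21 ± 0.17, was not called (adjusted p = 0.71) in the fit of all libraries and passed with the libraries compared alone (adjusted p = 0.0181). In TNRC6AB-/- cells the direction was the other one: 214.1, 205.6 and 188.4 CPM with siGL2 and 280.9, 294.8 and 294.6 CPM with siTNRC6C. The step of 0.52 ± 0.17 was not called (adjusted p = 0.0669) and passed with the libraries compared alone (adjusted p = 6.57e-07). The interaction for SOX9, 0.72 ± 0.24, likewise was not called (adjusted p = 0.0994) and passed with those 12 libraries alone (adjusted p = 1.55e-06). Here too genotype cannot be told apart from the deeper knockdown of TNRC6C in TNRC6AB-/- cells. TNRC6AB-/- siTNRC6C against WT siGL2 gave a rise of 0.85 ± 0.17 (adjusted p = 0.000362).

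TCF7 encodes TCF-1, a member of the TCF/LEF family that, like LEF1, is itself a Wnt target. It stood at 19.1, 10.4 and 21.9 CPM in WT, 29.3, 23.9 and 26.3 CPM in TNRC6A-/-, 25.0, 19.5 and 20.2 CPM in TNRC6B-/- and 30.1, 34.5 and 29.5 CPM in TNRC6AB-/-. The rise in TNRC6AB-/- was 0.87 ± 0.18 (adjusted p = 0.000563), and without the low second WT library it was 0.61 (adjusted p = 0.00145). In TNRC6A-/- the value was 0.63 ± 0.18 (adjusted p = 0.0197). Without that WT library it was 0.37 (adjusted p = 0.0809), and without the first TNRC6A-/- library 0.55 (adjusted p = 0.0865), so this call rests on single libraries; it was also lost with the libraries compared alone (adjusted p = 0.176). In transfected cells the means ran from 24.2 CPM in WT siGL2 to 28.6 CPM in WT siTNRC6C, and no difference among them was called. The libraries of WT siTNRC6C and of TNRC6AB-/- siTNRC6C lay above those of WT siGL2, and the second of these differences, 0.16 ± 0.17 (adjusted p = 0.479), passed with the libraries compared alone, at 0.27 (adjusted p = 0.00499).

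TCF7 makes long proteins that bind beta-catenin through their amino-terminal end and short ones, from an internal promoter, that lack this end. In GENCODE 29 (GRCh38) the gene spans chr5:134114711-134151865 on the plus strand. The coding sequence of 2 of its 14 coding transcripts, 1152 and 1443 bases long, begins at the upstream position 134114907. That of the leading transcript begins at 134115938 and is 807 bases long. The leading transcript had a mean of 4.74 TPM over the 24 libraries, and the more abundant of the 2 upstream ones 1.16 TPM. Transcripts with the upstream start codon made up 18.4%, 10.7% and 20.7% of the coding TCF7 TPM in WT, with a mean of 16.6% ± 5.26 (SD, n = 3). The share was highest in TNRC6A-/-, at 25.9% ± 2.45, where no library overlapped WT, and in TNRC6AB-/- it was 16.7% ± 1.35. The two-sided exact permutation test of TNRC6A-/- against WT gave p = 0.1, the smallest value that 3 libraries against 3 allow, and so could not pass 0.05. The pairs compared were each knockout or knockdown with its control, and TNRC6AB-/- with TNRC6A-/-. Of these only the last was also free of overlap (p = 0.1, exact test), and other pairs of groups were not compared. In transfected cells the means lay between 12.4% in TNRC6AB-/- siTNRC6C and 15.5% in WT siGL2. Salmon estimates how reads divide between transcripts that share most of their exons, and the shorter fragments of TNRC6A-/- move with this share.

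**Figure D2:**
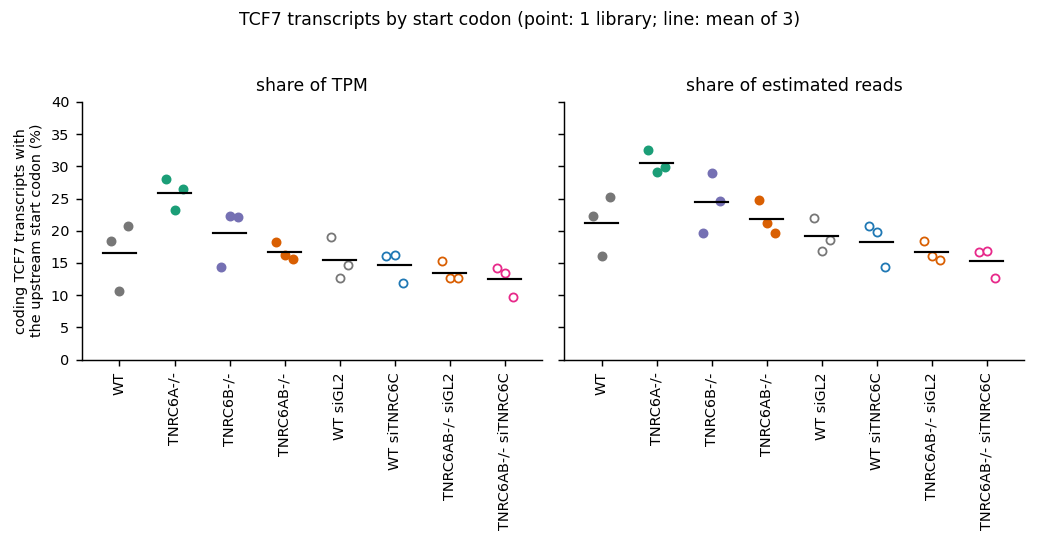
Percent of the coding TCF7 level that comes from transcripts with the upstream start codon, by TPM (left) and by estimated reads (right), with a point per library and a line at the mean of each group of 3. The TNRC6A-/- libraries lie above all WT libraries on both scales, with means of 25.9% and 30.5%.

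In the fit of all libraries none of the 7 genes fell in a knockout or knockdown against its control. In TNRC6A-/- against WT 5 of the 7 tested genes rose (AXIN2, SP5, RNF43, SOX9 and TCF7), where 8.52% of all tested genes rose, and their median log2 fold change was 0.83 against 0.02 for all tested genes. In TNRC6B-/- 2 rose (SP5 and RNF43), where 2.20% of all genes did, with a median of 0.56 against 0.04. In TNRC6AB-/- 5 rose (AXIN2, SP5, TCF7, SOX9 and ZNRF3), where 17.2% of all genes did, with a median of 0.78 against 0.01. All 7 values were above 0 in each of these 3 comparisons, which share the WT libraries, and the genes were chosen with earlier results of these data known.

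Among transfected cells the counts depended on the fit. WT siTNRC6C against WT siGL2 had 0 of 7 called by edgeR, where 0.397% of all genes rose and 0.534% fell. None of the 7 had an unadjusted p under 0.05 there, DESeq2 called 0 as well, and the fit of those libraries alone called 2, with AXIN2 up and SOX9 down. Over all genes that fit called 1610 up and 1614 down of 20855. TNRC6AB-/- siGL2 against WT siGL2 had 2 rise (AXIN2 and SP5), where 9.17% of all genes did, with a median of 0.26. The fit of those libraries alone called 4, adding RNF43 (adjusted p = 0.00199) and SOX9 (adjusted p = 0.000354). It called 4265 genes up and 3740 down of 21398. With siTNRC6C against siGL2 in TNRC6AB-/- cells 2 rose (NKD1 and ZNRF3), where 2.19% of all genes did, with a median of 0.40 against -0.02 for all genes. The fit of those libraries alone called 6, all but TCF7, with RNF43 added at an adjusted p of 0.0428. Over all genes it called 3739 up and 5076 down of 22195. TNRC6AB-/- siTNRC6C against WT siGL2 had 6 rise, all but TCF7, where 17.0% of all genes rose, with a median of 0.54 against 0.01. NKD1 was among these, at 0.54 ± 0.13 (adjusted p = 0.0014).

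**Figure D3:**
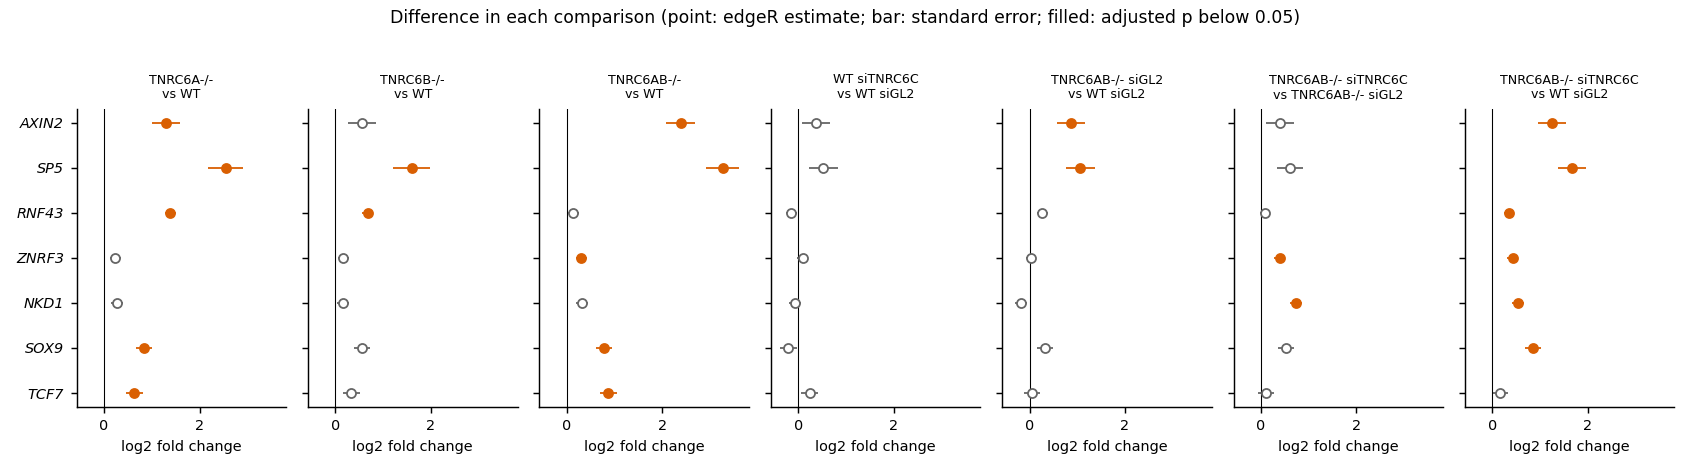
Log2 fold change of each of the 7 genes in the 7 comparisons of knockout or knockdown with its control, with standard errors as bars and filled points at an adjusted p below 0.05 in the edgeR fit of all 24 libraries. No filled point lies below 0, and SP5 reaches 3.26 in TNRC6AB-/- against WT.

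The size of the TNRC6AB-/- effect differed between untransfected and transfected cells. As an interaction, the effect in siGL2 cells was smaller than that in untransfected cells by -2.19 ± 0.47 for SP5 (adjusted p = 0.00521), -1.53 ± 0.42 for AXIN2 (adjusted p = 0.0235) and -0.82 ± 0.25 for TCF7 (adjusted p = 0.0412), on the log2 scale. Thus 3 of 7 genes differed in the negative direction, where 6.50% of all genes did. The WT side moved as well: in WT siGL2 against WT, SP5 was higher by 1.83 ± 0.38, AXIN2 by 1.14 ± 0.30, TCF7 by 0.50 ± 0.18 and NKD1 by 0.37 ± 0.13 (adjusted p = 0.00203, 0.00964, 0.0428 and 0.0367). That is 4 of 7 genes rising, where 16.4% of all genes did. None of these 3 interactions and 4 differences was called with the libraries compared alone, where SP5 had an adjusted p of 0.0559 for the interaction and 0.0813 for the difference. In the fit of all libraries the AXIN2 interaction also lost its call without any 1 of 5 of the 12 libraries (TNRC6AB-/- replicate 2, TNRC6AB-/- siGL2 replicates 2 and 3, WT siGL2 replicates 1 and 2, adjusted p from 0.0557 to 0.106), and TCF7 without any 1 of 7 (the same 5, TNRC6AB-/- replicate 3 and WT replicate 2, adjusted p from 0.0553 to 0.189). Without WT replicate 2 the differences of WT siGL2 from WT were 1.33 for SP5 and 0.73 for AXIN2, both still called, and 0.24 for TCF7 (adjusted p = 0.249) and 0.27 for NKD1 (adjusted p = 0.192). With all libraries RNF43 lay below 0, at -0.24 ± 0.11 (adjusted p = 0.128), as did SOX9 at -0.03 ± 0.17 (adjusted p = 0.906). Without WT replicate 2 RNF43 was called lower, at -0.38 (adjusted p = 0.0192). The TCF7 call ended as well without WT siGL2 replicate 1 or 2, and the NKD1 call without those or WT replicate 1. Mean fragments were longer in all transfected libraries, from 195.66 to 213.13 bases, and transfection cannot be told apart from this.

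Over the 24 libraries SP5 and AXIN2 followed each other most closely of the 7 genes, with Pearson's r = 0.95 on log2 CPM, and TCF7 followed AXIN2 with r = 0.88 and SP5 with r = 0.87. NKD1 and ZNRF3 had r = 0.82. RNF43 had r = -0.03 with AXIN2 and 0.12 with SP5, and its closest member was SOX9 at r = 0.61. Among all tested genes with a mean of at least 5 CPM, the closest to both SP5 (r = 0.97) and AXIN2 (r = 0.96) was SCD5, a stearoyl-CoA desaturase. For RNF43 it was PI4KA (r = 0.90), for NKD1 ANKRD46 (r = 0.90), for ZNRF3 ALG9 (r = 0.86), for TCF7 DCAF15 (r = 0.95) and for SOX9 EPHA2 (r = 0.92). These are descriptions over 24 libraries that share 8 groups and their depth.

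The TNRC6 proteins act at microRNA sites, most of them in 3′ UTRs. The 3′ UTRs of the leading transcripts of the 10 genes were searched for 7-base matches to the seeds of 15 microRNA families. The 10 include the near-silent LGR5, ASCL2 and LEF1, whose leading transcripts rest on few reads. These are not tested genes, while the background below holds tested genes only, so the comparison is not like with like. The miR-15/16 family had a match in 6 of the 10, more than any other family, while 20.3% of the 14185 tested genes with a 3′ UTR had one. It is shown with its sites for that reason, the seed (bases 2 to 8) or its match in capitals, with the first site where a gene has 2, as AXIN2 and ZNRF3 do.
hsa-miR-15a-5p: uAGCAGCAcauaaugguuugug
ASCL2: gtgggcacTGCTGCTctgctagg
AXIN2: tatggataTGCTGCTttaaactt
RNF43: tacaaaggTGCTGCTccttctcc
SOX9: taaaacggTGCTGCTgggaaaca
SP5: ataggaaaTGCTGCTgaactgaa
ZNRF3: cccttggcTGCTGCTtccttggg

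The miR-34 family had a match in 4 of the 10, AXIN2, NKD1, SOX9 and TCF7, against 14.7% of tested genes, and the let-7 family in NKD1 alone, against 8.95%.
hsa-miR-34a-5p: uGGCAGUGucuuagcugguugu
AXIN2: gctagaatCACTGCCgctgtgct
NKD1: gcagttgcCACTGCCccatcccc
SOX9: cccgagcaCACTGCCcccggttg
TCF7: ccatccccCACTGCCacaccctc
hsa-let-7a-5p: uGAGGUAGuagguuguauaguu
NKD1: aacagctgCTACCTCttagtatt
NKD1 held matches to 9 families, more than any other of the genes, and had by far the longest 3′ UTR, 15468 bases, against a median of 942 over the tested genes and a range of 108 to 3865 in the other 9. Sequences are those of RefSeq for the microRNAs and of GENCODE 29 for the transcripts, and 3′ UTR length was not matched between the genes and the background.

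The rest of the Wnt pathway was read from a list of 107 other genes, of which 90 were tested. Their calls are those of the fit of all libraries, and alternatives for them are not given here. In TNRC6AB-/- against WT a fit of those libraries alone called 1966 up and 1589 down of all genes, in place of 4146 and 2965. In TNRC6AB-/- siTNRC6C against WT siGL2 it called 6882 and 6422, in place of 4116 and 6077. In TNRC6A-/- against WT 14 rose and 3 fell, in TNRC6B-/- 7 rose and 3 fell, and in TNRC6AB-/- 36 rose and 11 fell. Over all tested genes 8.52%, 2.20% and 17.2% rose and 5.47%, 0.94% and 12.3% fell. The medians were 0.13, 0.16 and 0.26, against 0.02, 0.04 and 0.01 for all tested genes. In TNRC6AB-/- siTNRC6C against WT siGL2 20 rose and 33 fell, where 17.0% of all genes rose and 25.2% fell, with a median of -0.16 against 0.01.

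Other targets of the pathway did not move as a block. CCND1, the cyclin that drives entry into S phase, had means of 524.7 CPM in WT, 1150.5 in TNRC6A-/- and 1492.8 in TNRC6AB-/-, and 467.8 in WT siGL2 against 3023.8 in TNRC6AB-/- siTNRC6C. It rose by 1.13 ± 0.16 in TNRC6A-/- and 1.51 ± 0.17 in TNRC6AB-/- against WT, and by 2.69 ± 0.17 in TNRC6AB-/- siTNRC6C against WT siGL2 (adjusted p = 4.82e-05, 2.88e-07 and 5.14e-11). MYC, the growth regulator, went down: its means were 280.8 CPM in WT, 284.1 in TNRC6A-/- and 55.9 in TNRC6AB-/-. It fell by 2.33 on the log2 scale in TNRC6AB-/- against WT (adjusted p = 6.42e-08). NKD2, the paralogue of NKD1, fell by 3.52 in the same comparison (adjusted p = 1.68e-10). Of the 12 other targets in the list 3 rose and 4 fell there, where 17.2% of all genes rose and 12.3% fell. In TNRC6AB-/- siTNRC6C against WT siGL2 3 rose and 8 fell, where 17.0% of all genes rose and 25.2% fell.

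Among other stem cell genes, the pentaspan protein PROM1, the telomerase gene TERT and the receptor inhibitor LRIG1 fell in TNRC6AB-/- against WT, by 3.35, 3.45 and 1.56 on the log2 scale (adjusted p = 1.07e-08, 1.62e-07 and 7.62e-06). Of the 7 tested these 3 fell and 1 rose, the receptor-like protein PTK7, at 0.69 ± 0.14, where 12.3% of all genes fell and 17.2% rose. The same 3 fell in TNRC6AB-/- siTNRC6C against WT siGL2 and none of the 7 rose, where 25.2% of all genes fell and 17.0% rose.

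Of the receptors, 10 of 15 tested rose in TNRC6AB-/- against WT and none fell, where 17.2% of all genes rose and 12.3% fell. They included FZD1 at 1.91 ± 0.18, FZD4 at 0.81 ± 0.13 and LGR6, the relative of the silent LGR5, at 2.51 ± 0.40 (adjusted p = 3.77e-08, 5.62e-05 and 4.13e-05). LGR6 also rose in TNRC6AB-/- siTNRC6C against WT siGL2, by 3.49 ± 0.43 (adjusted p = 1.05e-06). There 5 of the 15 receptors rose and 4 fell, where 17.0% of all genes rose and 25.2% fell. Of 14 ligands tested 4 rose and 3 fell in TNRC6AB-/- against WT, where 17.2% of all genes rose and 12.3% fell. WNT9A stood at 1.45 ± 0.16, WNT11 at 1.08 ± 0.29 and WNT7B at -1.40 ± 0.36. Of 8 secreted inhibitors and their coreceptors 3 rose and none fell, against the same shares of all genes. These were NOTUM, by 1.29 ± 0.22, DKK1 by 1.19 ± 0.27 and KREMEN1 by 0.86 ± 0.15.

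Inside the cell, 6 of 16 genes of the destruction complex and cytoplasm rose in TNRC6AB-/- against WT and none fell, where 17.2% of all genes rose and 12.3% fell. Among them were DVL3, a Dishevelled protein, at 0.52 ± 0.08, GSK3B, the kinase that marks beta-catenin for destruction, at 0.49 ± 0.09, and BTRC, which recognises it, at 0.62 ± 0.10. APC rose by 0.25 ± 0.09, and AXIN1, the constitutive relative of AXIN2, differed by -0.25 ± 0.14 without being called. Of 14 nuclear effectors 9 rose and 1 fell, against the same shares of all genes. HBP1, a repressor of TCF activity, rose by 0.72 ± 0.10 and BCL9, a beta-catenin coactivator, by 0.50 ± 0.10. CTNNB1 rose by 0.50 ± 0.12 and TCF7L1 by 0.67 ± 0.11, while TCF7L2, the main TCF factor of colon cells, differed by 0.21 ± 0.15 and was not called. In TNRC6AB-/- siTNRC6C against WT siGL2 CTNNB1 stood at -0.24 ± 0.12 and was not called, and TCF7L2 fell by 0.44.

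**Figure D4:**
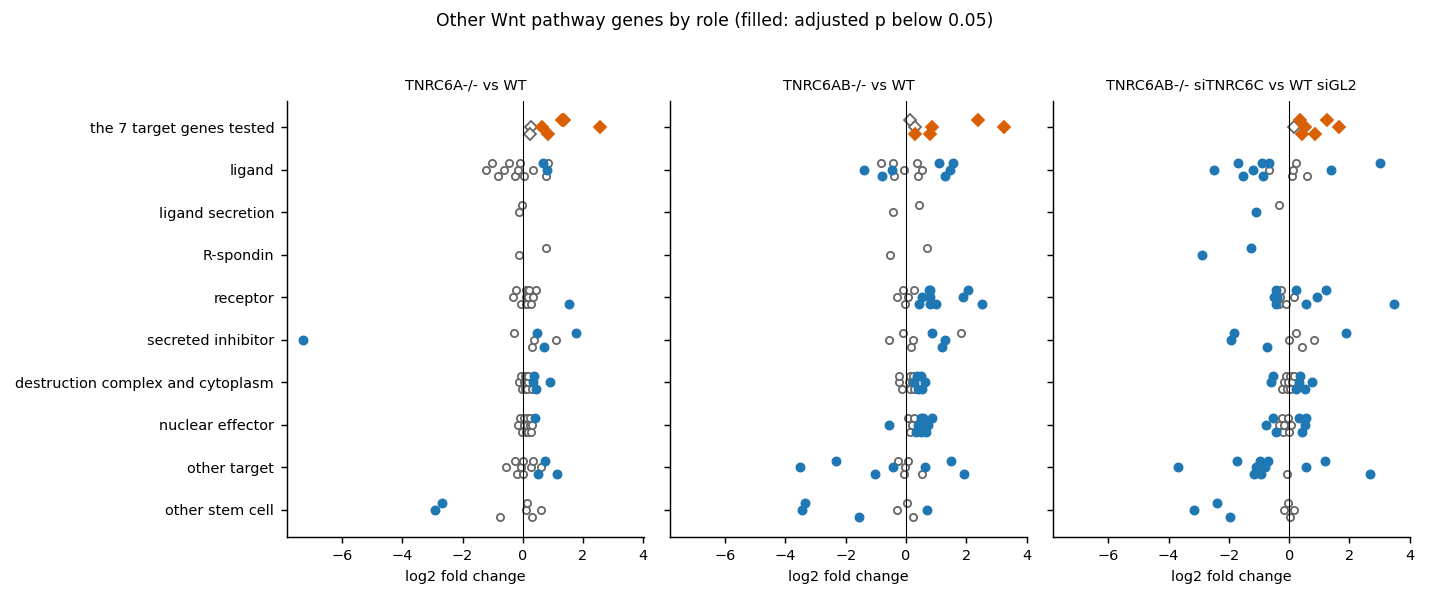
Log2 fold changes of the 90 tested genes of the wider Wnt list by role (circles) and of the 7 target genes (diamonds, top row) in 3 comparisons, filled at an adjusted p below 0.05. In TNRC6AB-/- against WT 10 of 15 receptors are filled, all to the right of 0, and in TNRC6AB-/- siTNRC6C against WT siGL2 8 of the 12 other targets are filled to the left of 0. Over all tested genes 17.2% rose in the first comparison and 25.2% fell in the second. The secreted inhibitor SFRP1, drawn at the far left in TNRC6A-/-, had 0 reads in all 3 of those libraries, so that its place depends on the prior count of the fit and is no measure of a fold.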

How the data were processed

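RNA-seq libraries of 24 HCT116 samples, 8 groups of 3, were used. The authors quantified transcripts with Salmon 0.11.0 (STAR 2.5.3a is also named in the submitters' processing notes) and deposited estimated counts and TPM per transcript, and the annotation release was not given in the sources used here. By transcript identifier without version, 199368 of 199612 transcripts matched GENCODE 29, and the 244 others held at most 0.0544% of a library's reads. Estimated counts were summed to genes and rounded. Genes were filtered on low counts with filterByExpr, libraries scaled with TMM (0.853 to 1.17), and all 24 libraries fitted together with edgeR 4.0.16 (R 4.3.3) by the quasi-likelihood test, with 16 residual degrees of freedom and Benjamini-Hochberg adjustment over 24153 genes. CPM are TMM-scaled. TPM are the deposited values summed to genes. They were used between genes, for marker sums and for shares of TCF7 transcripts, and not for fold changes in the main fit. Standard errors are the log2 fold change over the square root of F, and intervals are 95%. Shares of TCF7 transcripts were compared by the exact permutation test over libraries.

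Every one of the 10 genes is reported. Of 107 other pathway genes the rule was to name the called genes with the 3 smallest adjusted p per role and comparison, and CTNNB1, TCF7L1, TCF7L2, MYC, CCND1, APC, AXIN1 and GSK3B; the text gives them for TNRC6AB-/- against WT and only some of them for the other comparisons. The genes closest to a member are those with the highest r among genes with a mean of at least 5 CPM. OLFM4, SMOC2, SFRP1 and the other stem cell genes outside this rule are named after their values were seen. The 10 genes and the lists were chosen with earlier results of these data known, and the comparison of TNRC6AB-/- with TNRC6A-/- was added after the data were seen. Alternatives were DESeq2 1.42.0, limma 3.58.1 with voom, RLE factors, no filter, the libraries compared alone, counts rescaled from TPM, a replicate block and the removal of single libraries. The fit was tested on simulated data. Floors cover counting error only.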

Additional observations from a re-analysis of the deposited data

Results flagged for a closer look

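The effect of siTNRC6C on NKD1 differed between genotypes, by 0.80 on the log2 scale (edgeR interaction, higher in TNRC6AB-/- than in WT cells). All 3 TNRC6AB-/- siTNRC6C libraries lay above the other 21 in the study. TNRC6C was lowered further by siTNRC6C in TNRC6AB-/- than in WT cells, so genotype and depth of knockdown cannot be told apart.

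The effect of TNRC6AB loss differed between siGL2-transfected and untransfected cells, as the edgeR interaction of genotype with transfection, for 6 of 15 genes, the 7 targets and 8 pathway genes followed in every comparison. Of all 90 tested genes of the wider list 5 were called with a positive and 25 with a negative interaction. Over all 24153 tested genes 536 were called positive and 1569 negative. The log2 difference, transfected minus untransfected, was -2.19 for SP5, -1.53 for AXIN2 and -0.82 for TCF7, and -0.65 for CTNNB1 and -0.62 for TCF7L1. For MYC it was 1.30, with a fall in TNRC6AB-/- of 2.33 in untransfected and of 1.03 in transfected cells. The SP5, AXIN2 and TCF7 values are those of the report, and none of these 3 was called with the 12 libraries fitted alone.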

How the results depend on the processing

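No value of the 7 genes that was called reversed under any alternative. With the libraries compared fitted alone, the number called of the 7 went from 5 to 3 in TNRC6A-/- against WT, 2 to 0 in TNRC6B-/- against WT, 0 to 2 in WT siTNRC6C against WT siGL2, 2 to 4 in TNRC6AB-/- siGL2 against WT siGL2, 2 to 6 in TNRC6AB-/- siTNRC6C against TNRC6AB-/- siGL2, 4 to 0 in WT siGL2 against WT, 1 to 4 for the siTNRC6C interaction and 3 to 0 for the transfection interaction. Over all genes this fit called 24 up and 66 down in WT siGL2 against WT in place of 3965 and 2031. In TNRC6AB-/- siTNRC6C against TNRC6AB-/- siGL2 it called 3739 up and 5076 down in place of 529 and 1057. For the siTNRC6C interaction it called 1838 up and 4800 down in place of 218 and 515. Its 4 of the 7 genes there were NKD1, SOX9, RNF43 (adjusted p = 0.0165) and ZNRF3 (adjusted p = 0.00773).

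With limma voom the counts were 1 in TNRC6B-/- against WT, 4 in TNRC6AB-/- siGL2 against WT siGL2, 5 in TNRC6AB-/- siTNRC6C against TNRC6AB-/- siGL2 and 2 for the siTNRC6C interaction. With DESeq2 they were 1 in TNRC6AB-/- siGL2 against WT siGL2 and 2 for the siTNRC6C interaction. That interaction gave 2 with no filter on low counts and 0 with counts rescaled from TPM. With a minimum log2 fold change of 0.6 added, 1 was called in TNRC6AB-/- siTNRC6C against TNRC6AB-/- siGL2, 3 in TNRC6AB-/- siTNRC6C against WT siGL2 and 2 in WT siGL2 against WT. Without WT replicate 2 and TNRC6B-/- replicate 1, 4 were called in TNRC6AB-/- siGL2 against WT siGL2, 5 in TNRC6AB-/- siTNRC6C against TNRC6AB-/- siGL2 and 2 for the siTNRC6C interaction. RLE factors moved none of these counts by more than 1.5 times. Leaving out 1 library at a time gave 4 to 6 in TNRC6A-/- against WT, 1 to 3 in TNRC6B-/-, 4 to 6 in TNRC6AB-/-, 0 to 0 in WT siTNRC6C, 0 to 1 in TNRC6AB-/- siGL2, 1 to 1 in TNRC6AB-/- siTNRC6C against TNRC6AB-/- siGL2 and 5 to 6 against WT siGL2, 2 to 4 in WT siGL2 against WT, 0 to 1 for the siTNRC6C interaction, 1 to 4 for the transfection interaction and 1 to 3 in TNRC6AB-/- against TNRC6A-/-. Where this left 2 libraries in a group, the spread was pooled over all groups. Apart from the change in the genes tested, the cause of these shifts was not tested.

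Replicate numbers did not pair the libraries. This was read from log2 CPM after the group mean of each gene was taken off. On these remainders same-numbered libraries had correlations of -0.243 to 0.354, and in no comparison were all 3 above 0.1. With a replicate block 4 genes were called in TNRC6AB-/- against WT in place of 5, and the count was the main one in the other comparisons. Between a few reads and none, as for LGR5, ASCL2 and LEF1, depth did not allow a comparison.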

Other observations

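SFRP1, a secreted Wnt inhibitor of the wider list, separated groups by the presence of any read, a pattern noticed in the values. Its 3 WT libraries had 11, 18 and 24 reads, those of TNRC6B-/- 28, 28 and 17, and those of TNRC6AB-/- 13, 34 and 17. All 3 libraries of TNRC6A-/- and all 12 transfected libraries, WT siGL2 and WT siTNRC6C among them, had 0, where up to 3 reads per library cannot be told from none. The WT libraries with and without transfection thus differed in a gene that no siRNA was directed against, and the cause was not tested.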
